A study of Mus musculus with 8 samples.

Results

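The 37 genes described here encode enzymes and proteins that place, remove or read methyl groups on lysine 4 of histone H3 (H3K4) and acetyl groups on histone lysines. They were taken by name, as 6 H3K4 methyltransferases, 6 subunits of the methyltransferase complexes, 4 demethylases, 9 acetyltransferases, 9 deacetylases and 3 bromodomain proteins, from 24350 coding and long noncoding mouse genes with curated RefSeq transcripts. All 37 were found in the RefSeq table. For each gene, intervals of 3 histone marks were collected over its span plus 1 kb on each side.

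The cells were mouse neuronal stem cells cultured in Neurobasal A with the growth factors EGF and bFGF, and both genotypes shared the p16Ink4a and p14Arf negative background given in the labels. A line had been stably transduced with wild-type histone H3.3 and the other with H3.3K27M, in which lysine 27 is replaced by methionine. H3K4me3, H3K27ac and H3K27me3 were each measured by chromatin immunoprecipitation and sequencing (ChIP-seq) in 1 library per genotype, called the wild-type and the K27M library below. Whether a line was 1 clone or a pool, the promoter that drove the transgene, and the level of endogenous H3.3 were not stated in the labels. With 1 library per genotype no difference could be tested, so every value compares 2 libraries and has no replicate error, and a difference between them cannot be told apart from a difference between preparations.

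H3K4me3 lies at the start sites of active and poised genes, H3K27ac at active promoters and enhancers, and H3K27me3 at genes silenced by Polycomb proteins. The KMT2 and SET1 enzymes methylate H3K4 together with a shared core of subunits, and KDM1 and KDM5 enzymes remove those methyl groups. Ep300 and Crebbp acetylate H3K27, histone deacetylases remove acetyl groups, and bromodomain proteins bind acetylated histones. H3K27M is known to inhibit the H3K27 methyltransferase complex PRC2 and is the characteristic mutation of diffuse midline gliomas.

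Promoter sequences were available for 29 of the 37 genes in the RefSeq table of GRCm38.p6, each with 250 bases before and 50 after a start site. Of these, 11 genes had several entries, and for each gene the entry with the densest wild-type H3K4me3 was used, then the one with the most CpG. The 5 below belong to the genes on which the results turn, and they are written 5′ to 3′ on the gene's own strand with every CpG dinucleotide in capitals. Ep300 had the highest H3K4me3 density of the 37 genes at regions called in both libraries, Brd9 and Brd3 the highest and lowest H3K27ac ratio, Hdac11 an H3K27ac interval in the wild-type library alone, and Sirt1 no H3K27ac interval. Their windows are chr15:81585964-81586263 (plus strand) for Ep300, chr13:73937561-73937860 (plus strand) for Brd9, chr2:27475349-27475648 (minus strand) for Brd3, chr6:91156565-91156864 (plus strand) for Hdac11 and chr10:63338986-63339285 (minus strand) for Sirt1.
Ep300: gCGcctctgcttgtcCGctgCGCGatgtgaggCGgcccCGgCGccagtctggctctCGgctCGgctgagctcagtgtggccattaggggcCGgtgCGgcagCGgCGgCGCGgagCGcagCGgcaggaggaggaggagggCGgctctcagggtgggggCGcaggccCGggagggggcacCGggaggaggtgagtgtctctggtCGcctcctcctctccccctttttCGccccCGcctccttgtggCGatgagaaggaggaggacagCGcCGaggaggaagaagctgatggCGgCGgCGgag
Brd9: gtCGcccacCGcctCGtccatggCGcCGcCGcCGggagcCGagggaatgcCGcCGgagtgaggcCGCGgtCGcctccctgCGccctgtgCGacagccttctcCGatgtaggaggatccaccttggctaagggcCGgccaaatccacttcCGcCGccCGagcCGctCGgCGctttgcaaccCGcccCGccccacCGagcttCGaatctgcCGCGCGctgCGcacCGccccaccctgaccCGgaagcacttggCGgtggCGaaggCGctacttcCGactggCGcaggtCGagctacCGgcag
Brd3: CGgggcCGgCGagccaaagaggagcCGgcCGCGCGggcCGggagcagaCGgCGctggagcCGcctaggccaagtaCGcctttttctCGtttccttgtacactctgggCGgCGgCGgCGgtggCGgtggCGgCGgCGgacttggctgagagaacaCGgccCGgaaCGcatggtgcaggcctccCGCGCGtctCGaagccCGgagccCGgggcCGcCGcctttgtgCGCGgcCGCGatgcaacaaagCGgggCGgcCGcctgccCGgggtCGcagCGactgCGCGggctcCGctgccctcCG
Hdac11: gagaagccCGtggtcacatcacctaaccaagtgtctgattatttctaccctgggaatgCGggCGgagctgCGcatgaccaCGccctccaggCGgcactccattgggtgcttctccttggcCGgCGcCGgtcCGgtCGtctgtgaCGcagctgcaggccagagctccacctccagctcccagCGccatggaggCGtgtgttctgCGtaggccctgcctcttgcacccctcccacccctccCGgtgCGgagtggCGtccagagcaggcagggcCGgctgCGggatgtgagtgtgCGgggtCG
Sirt1: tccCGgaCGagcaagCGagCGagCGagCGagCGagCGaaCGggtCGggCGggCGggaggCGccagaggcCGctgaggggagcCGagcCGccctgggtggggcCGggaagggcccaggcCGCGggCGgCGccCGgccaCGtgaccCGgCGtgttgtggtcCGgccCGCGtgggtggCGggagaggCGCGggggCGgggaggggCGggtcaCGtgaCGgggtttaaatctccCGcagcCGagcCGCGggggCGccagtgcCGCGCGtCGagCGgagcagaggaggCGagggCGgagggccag

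These windows held 30 CpG dinucleotides in Ep300, 40 in Brd9, 46 in Brd3, 22 in Hdac11 and 47 in Sirt1. Over the 29 promoters the median was 30 CpG, from 3 in Hdac9 to 56 in Kmt2c, and the median GC content was 68%. With all 48 entries of these genes the medians were 27.5 CpG and 64.7%. Over all genes, with 1 entry each chosen in the same way, they were 13 CpG and 56.3%, and over the genes whose window carried H3K4me3 in both libraries 23 CpG and 63%. The letters GGGCGG, the core of the GC box bound by Sp1, were present on either strand in 20 of the 29 promoters (69.0%), in 46.4% of the promoters of all genes and in 71.0% of those with H3K4me3 in both libraries. The share of the regulators was thus close to that of other H3K4me3-marked promoters, and a match describes the sequence and not binding.

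Over the whole genome, called H3K4me3 intervals covered a similar length in both libraries, with 33.4 Mb in wild type and 34.4 Mb in K27M. H3K27ac intervals covered 31.7 Mb and 12.6 Mb, and H3K27me3 intervals 244 Mb and 44.4 Mb, each with wild type first. The H3K27ac list of K27M also began at a higher density, with a 5th percentile of 25.5 against 17 tags per bin, so part of the wild-type list lay below the range of the other. Of 12 neural stem and progenitor marker genes, 11 carried H3K4me3 in both libraries, H3K27ac was on 11 and 10, and Prom1 had neither mark. H3K4me3 was also on 7 of 8 mature neuron markers in each library, 2 of 5 endothelial, 2 of 5 fibroblast, 1 of 5 astrocyte, 1 of 5 oligodendrocyte and 1 of 6 microglial markers. Of the 6 microglial markers, 2 carried H3K27ac in wild type and 0 in K27M. Of the astrocyte markers, 4 had H3K27ac in wild type and 1 in K27M, of the mature neuron markers 4 and 2, of the endothelial markers 2 and 1, of the fibroblast markers 1 and 0, and of the oligodendrocyte markers 2 in both. The part of cell composition in the values below was not tested.

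All 37 regulators carried H3K4me3 in both libraries, against 54.7% of all genes. Density is the authors' mean number of tags per bin of about 32 nt over a called interval, a value per length. It moves with the length of the called interval, which limits comparison between genes. A density ratio is the log2 of K27M over wild type at the densest region that both lists called, with 1 added to each density. The median ratio of the 37 genes was 0.37, from -0.18 to 0.80, and that of the 13278 genes with a ratio was also 0.37. Relative to that median no regulator differed by 1.5-fold in either direction, where 0.919% of all genes did so upward and 0.889% downward. On the deposited scale 35 of 37 were higher in K27M by any amount, against 96.8% of all genes, and 4 were at least 1.5-fold higher, against 11.4%. Shares this close to those of all genes are not a result about the regulators.

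**Figure D1:**
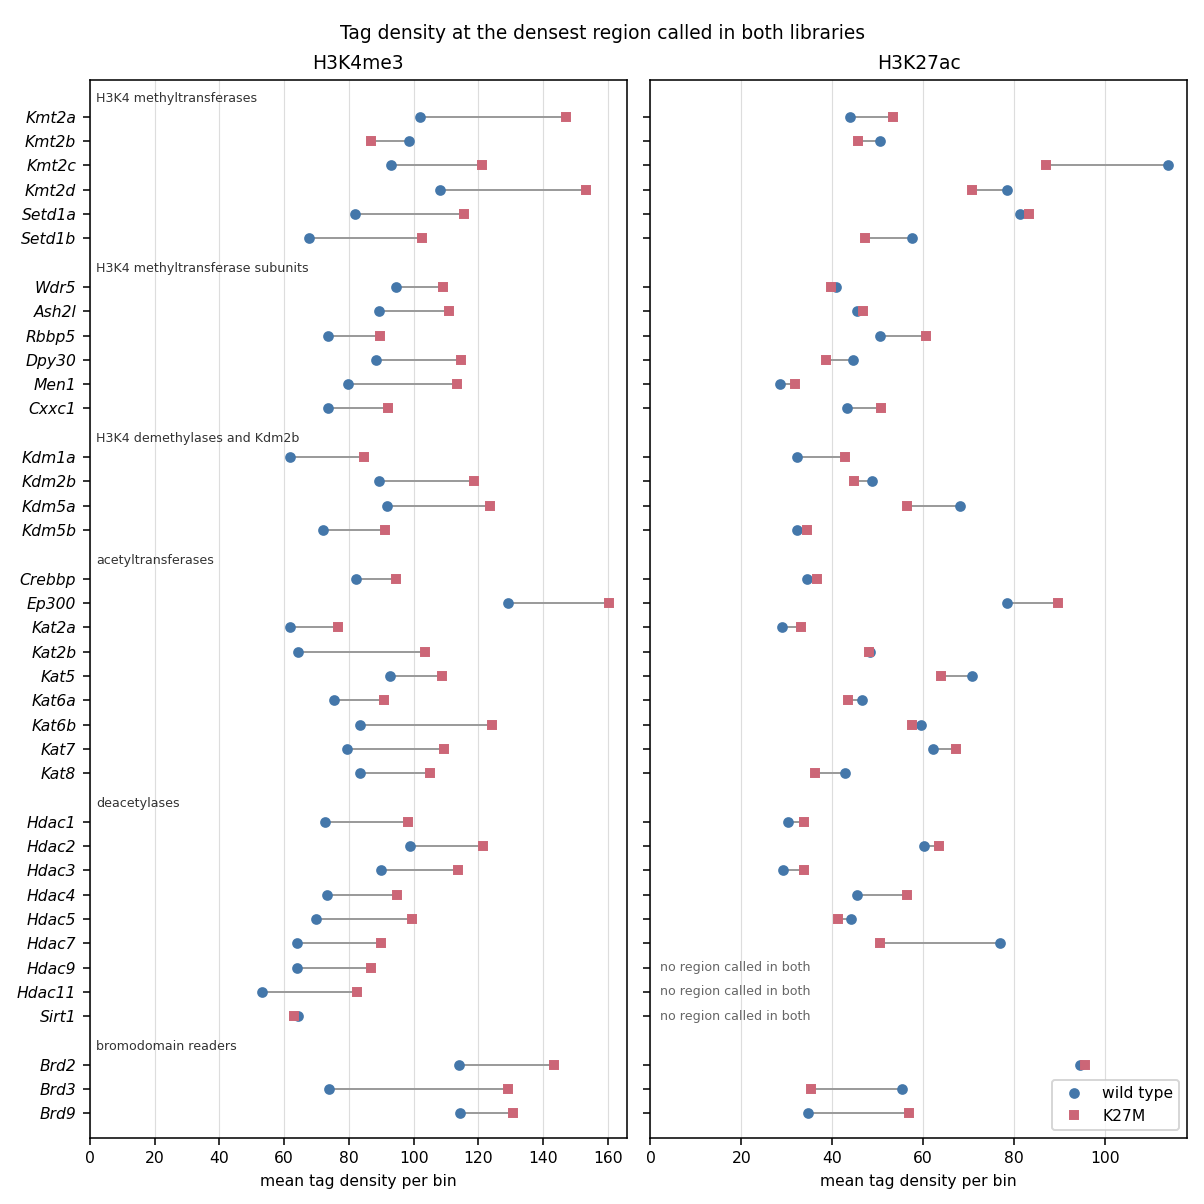
Mean tag density per bin of H3K4me3 (left) and H3K27ac (right) for each of the 37 regulators, at the densest region called in both lists, with 1 point for the wild-type and 1 for the K27M library. H3K4me3 points of K27M lie to the right of wild type in 35 of 37 genes, while H3K27ac points change order from gene to gene.

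Among the H3K4 methyltransferases, Kmt2d had an H3K4me3 density of 108 tags per bin in wild type and 153 in K27M (ratio 0.50). Kmt2a, the founding member whose fusions drive leukaemia, had 102 and 147 (0.52). Both are higher in the K27M library by more than the median of all genes, though by well under the 1.5-fold limit. Kmt2c, which with Kmt2d methylates enhancers, stood at 93.0 and 121 (0.38). Setd1a and Setd1b, the catalytic subunits of the SET1 complexes, had 81.9 and 115 (0.49) and 67.8 and 102 (0.59).

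Kmt2b, known for H3K4 methylation at CpG-rich promoters, had the lowest of the 37 ratios, with densities of 98.4 in wild type and 86.7 in K27M (-0.18). Its covered length was 3507 bp in wild type and 5225 bp in K27M, the largest relative gain of H3K4me3 length among the 37 genes. Its highest bin held 224 tags in wild type and 287 in K27M, so the lower mean came with a longer interval and a higher summit. A second Kmt2b region, at the end of the gene that overlaps Zbtb32, had 70.3 in wild type and 95.1 in K27M, so the regions of this gene differed in direction. With 1 density floor for both lists the ratio of the Kmt2b region relative to the median was -0.67, past the limit of 1.5-fold.

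The core subunits lay close together in H3K4me3. Wdr5, the scaffold that binds the methyltransferase, had densities of 94.4 and 109 (0.20). Ash2l and Rbbp5, which activate the enzyme, had 89.4 and 111 (0.31) and 73.7 and 89.6 (0.28). Dpy30, which docks on Ash2l, had 88.3 and 115 (0.37). These 4 form the module shared by all KMT2 and SET1 enzymes, while the next 2 belong to some of the complexes only. Men1, the menin subunit of the Kmt2a and Kmt2b complexes, had 79.7 and 113 (0.50). Cxxc1, the CpG-binding subunit of the SET1 complexes, had 73.5 and 92.0 (0.32). All 6 were higher in K27M at these regions, with ratios relative to the median of all genes from -0.17 at Wdr5 to 0.13 at Men1. The intervals on the Wdr5 promoter window had 94.4 in wild type and 81.8 in K27M, the other direction.

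Among the demethylases, Kdm1a (LSD1) had 61.8 and 84.7 tags per bin (0.45), Kdm5a 91.8 and 123 (0.42) and Kdm5b 72.0 and 91.2 (0.34). Kdm2b, a demethylase best known for H3K36 that brings a variant Polycomb complex to CpG islands, had 89.2 and 119 (0.41). At the regions used their spread was narrow, from 0.34 to 0.45. The intervals on the Kdm1a promoter window were further apart, with 29.2 in wild type and 57.1 in K27M. The Kdm2b region is short, at 344 bp in wild type. The intervals at the upstream promoter entries of Kdm2b had 79.3 in wild type and 105 in K27M.

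Of the acetyltransferases, Ep300 had the highest H3K4me3 density of all 37 genes at these shared regions, with 129 in wild type and 160 in K27M (0.31). Counting every interval by itself, the densest in K27M was at Kmt2d, with 179 tags per bin. Crebbp, the paralogue of Ep300, had 82.1 and 94.7 (0.20). Kat2b (PCAF) had one of the larger ratios, with 64.3 and 104 (0.68), and its covered length was 4440 bp in wild type and 2995 bp in K27M. The intervals on its promoter window had 64.3 in wild type and 56.7 in K27M, the other direction. Kat2a, the paralogue of Kat2b and the catalytic subunit of the SAGA complex, stood at 61.9 and 76.8 (0.31). The MYST enzymes had 75.5 and 90.9 at Kat6a (0.26), 83.3 and 124 at Kat6b (0.57), 79.4 and 109 at Kat7 (0.46) and 83.3 and 105 at Kat8 (0.33). The region used for Kat5, the Tip60 enzyme, overlaps the neighbouring gene Rnaseh2c and had 92.6 and 109 (0.23). At Kat5's own promoter the densities were 61.6 and 84.2. At the regions used, every acetyltransferase was higher in K27M on the deposited scale.

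The class I deacetylases Hdac1, Hdac2 and Hdac3, the catalytic subunits of nuclear corepressor complexes, had H3K4me3 densities of 72.7 and 98.3 (0.43), 99.0 and 121 (0.29) and 90.0 and 114 (0.33). The class IIa enzymes, which shuttle between nucleus and cytoplasm, had 73.1 and 94.9 at Hdac4 (0.37), 70.0 and 99.5 at Hdac5 (0.50), 63.9 and 89.9 at Hdac7 (0.49) and 64.1 and 86.7 at Hdac9 (0.43). Hdac11, the only class IV enzyme, had the lowest wild-type density of the 37, with 53.2 and 82.5 (0.62). Sirt1, a NAD-dependent deacetylase, was nearly level between the libraries, with 64.2 and 63.0 (-0.03). At the regions used, Sirt1 and Kmt2b were the only regulators not higher in K27M on the deposited scale. Sirt1's relative ratio of -0.40 stayed inside the 1.5-fold limit. The highest bin at Sirt1 was 118 in wild type and 145 in K27M.

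Among the bromodomain readers, Brd2, like Brd3 a BET protein that binds acetylated histones at active genes, had H3K4me3 densities of 114 and 143 (0.33) and Brd9, a subunit of the non-canonical BAF complex, 114 and 131 (0.19). Brd3 had the highest ratio of all, with 73.9 and 129 (0.80). That region is short, at 844 bp in wild type and 834 bp in K27M, and lies upstream of the start site. The longer interval over the start site of Brd3 had 72.3 in wild type and 95.1 in K27M, and with the longest region in place of the densest its relative ratio was 0.02. When both lists were scaled to equal 5th percentiles, Brd3 was the 1 gene at least 1.5-fold higher (3.4% of all genes) and none was lower (0.369%).

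Summits of H3K4me3, the highest bin of the region, were at least 1.5-fold higher in K27M at 11 of the 37 genes (22.9% of all genes) and lower by any amount at none (2.72%). Covered H3K4me3 length changed by 2-fold at none of the 37, where 2.79% of all genes were 2-fold shorter and 1.37% 2-fold longer. The longest coverage was at Hdac5, with 10961 bp in wild type and 10927 bp in K27M, followed by Brd2 with 8751 and 8563 bp.

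**Figure D2:**
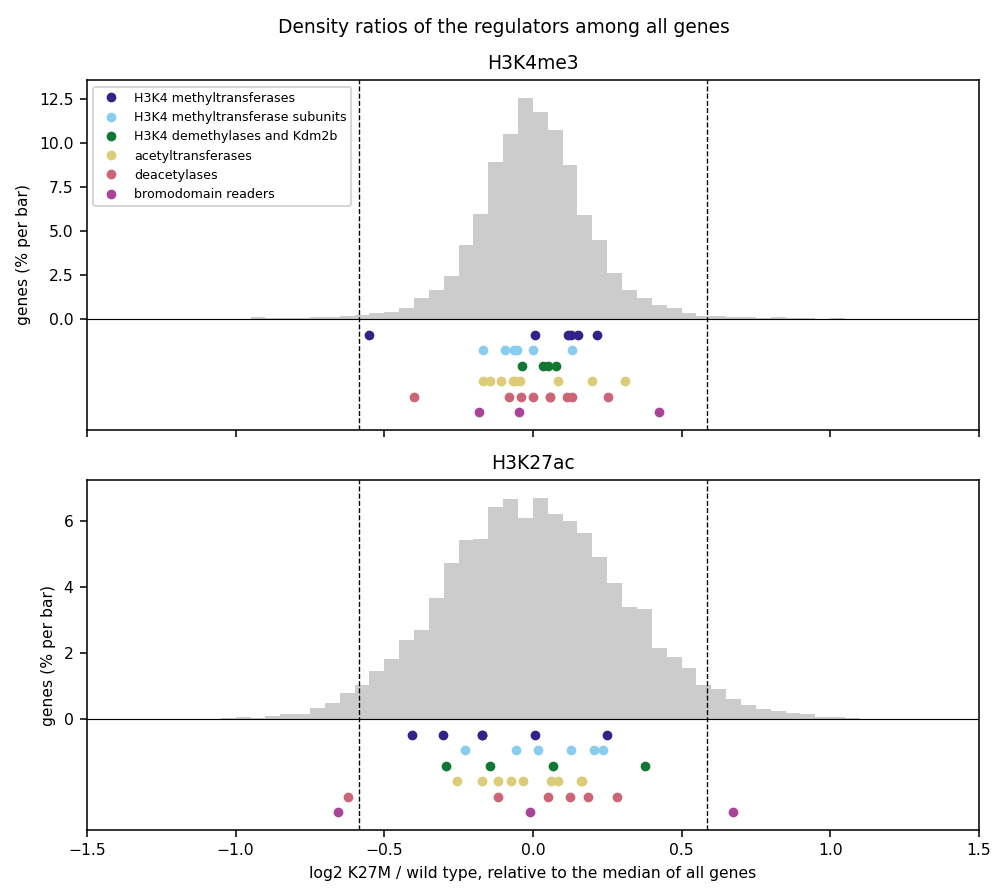
Log2 density ratio of K27M over wild type, relative to the median over all genes, for each regulator and for H3K4me3 and H3K27ac. The distribution over all genes with a ratio is shown beside them. Kmt2b and Sirt1 lie at the low end and Brd3 at the high end for H3K4me3, and Brd3 and Hdac7 at the low end and Brd9 at the high end for H3K27ac.

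H3K27ac was present at 36 of the 37 regulators in wild type and at 34 in K27M, with 34 in both, against 51.5%, 43.7% and 43% of all genes. Among the genes with H3K4me3 in both libraries, as all 37 are, the shares were 87.9%, 77.5% and 76.6%. Hdac9 and Hdac11 had the mark in wild type alone (8.55% of all genes), and Sirt1 had it in neither (47.8%). Hdac9 carried 3 wild-type intervals covering 2467 bp, the densest at 33.5 tags per bin. Hdac11 carried 1 interval of 447 bp at 23.6 tags per bin, which starts inside the promoter window printed above. That density is below 25.5, the 5th percentile of the K27M list, so whether the mark is lower there in K27M was not detectable. The densest Hdac9 interval was above that value.

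At the 34 genes with a shared H3K27ac region the median density was 47.4 in wild type and 47.6 in K27M, and the median ratio was 0.02, the same as for the 10362 genes with a ratio. Of the 34, 18 were higher in K27M by any amount, against 52.7% of all genes. Relative to the median, 1 was at least 1.5-fold higher (3.29% of all genes) and 2 were at least 1.5-fold lower (2.58%). With both lists scaled to equal 5th percentiles these counts were 0 (0.0579%) and 15 (45%), and the median over all genes was then -0.54, so the 15 are not a result about the regulators.

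Brd3 had the lowest H3K27ac ratio, with 55.4 tags per bin in wild type and 35.4 in K27M (-0.63), and its highest bin was 102 and 48. Hdac7 was next, with 76.9 and 50.5 (-0.60) and highest bins of 168 and 82. In both genes mean and summit were lower in the K27M library. Hdac7 fell just inside the limit with a pseudocount of 5, at a relative ratio of -0.58.

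Brd9 had the highest H3K27ac ratio, with densities of 34.8 in wild type and 57.0 in K27M (0.70). Its called interval was 1263 bp long in wild type and 289 bp in K27M, and its highest bin was 65 and 70. By the highest bin its relative ratio was 0.39, inside the 1.5-fold limit. Scaled to equal 5th percentiles its ratio, not taken relative to the median, was 0.13, where the median over all genes was -0.54. The interval also overlaps Trip13, which starts beside Brd9, so the mark cannot be assigned to either gene alone.

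The other writers of H3K4 methylation stayed within the limit. Kmt2c had the highest H3K27ac density in wild type of all 34, with 114 in wild type and 87.2 in K27M (-0.38). That region is 574 bp long in wild type and lies outside the gene span, in the 1 kb flank. The intervals on the Kmt2c promoter window had 48.4 in wild type and 46.2 in K27M. Setd1a had 81.4 and 83.2, Kmt2d 78.4 and 70.7, Setd1b 57.5 and 47.2, Kmt2b 50.6 and 45.6, and Kmt2a 44.0 and 53.5. The intervals on the Kmt2d promoter window had 49.2 in wild type and 70.7 in K27M, the other direction. Without the 1 kb flank another region was used for Setd1b, and its relative ratio was -0.96. The subunits ranged from 28.6 and 31.9 at Men1 to 50.6 and 60.7 at Rbbp5. Rbbp5 was the only regulator whose H3K27ac summit was at least 1.5-fold higher in K27M, with 77 and 120 (3.03% of all genes).

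Among the erasers of methylation, Kdm1a had H3K27ac densities of 32.2 and 42.9 (0.40) and Kdm5a 68.1 and 56.4 (-0.27). Kdm2b had 48.8 and 44.8, and Kdm5b 32.2 and 34.4. The direction thus differed from one demethylase to the next. Among the acetyltransferases, Ep300 again led, with 78.4 and 89.6, and Kat5 and Kat7 followed with 70.9 and 63.9 and with 62.3 and 67.3. Kat2a was the lowest in both libraries, with 29.0 and 33.1, and Crebbp was next in wild type, with 34.6 and 36.7. The mutually related enzymes Ep300 and Crebbp were thus far apart in density in both libraries. Of the other deacetylases, Hdac4 was at 45.4 and 56.4, Hdac2 at 60.3 and 63.6 and Hdac5 at 44.1 and 41.3. Hdac1 was at 30.3 and 33.7 and Hdac3 at 29.1 and 33.8. The Hdac5 region lies inside the gene, away from promoters and CpG islands. On the Hdac5 promoter window the densest intervals had 29.4 in wild type and 46.4 in K27M, the other direction. The promoter intervals next to these had 48.0 in wild type and 41.7 in K27M. Brd2, the densest reader, was level at 94.7 and 95.7.

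Summits of H3K27ac were lower in K27M at more genes than means were. The highest bin was lower in K27M at 30 of the 34 genes (76% of all genes), and at 7 by at least 1.5-fold (21%). Those 7 were Brd3, Hdac7, Kat2b, Hdac5, Kmt2a, Kat8 and Kmt2c. At Kat2b the highest bin held 94 tags in wild type and 55 in K27M, while its mean was 48.3 and 48.0. That region lies inside the gene, away from the promoter window. The intervals on the Kat2b promoter window had means of 19.0 in wild type and 32.6 in K27M, the other direction. Of the 7 only Kmt2a had a higher mean in K27M, and its highest bin was 111 in wild type and 70 in K27M.

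Covered H3K27ac length was shorter in K27M at 35 of the 36 genes that carried the mark in wild type (93.6% of all genes) and at least 2-fold shorter at 19 (50.6%). Summed over the 37 genes it was 133 kb in wild type and 55.2 kb in K27M, so 41.5% was kept, against 44.3% over all genes. The regulators thus followed all genes in this measure. Only Kdm5b had more in K27M, with 867 bp in wild type and 1322 bp in K27M.

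**Figure D3:**
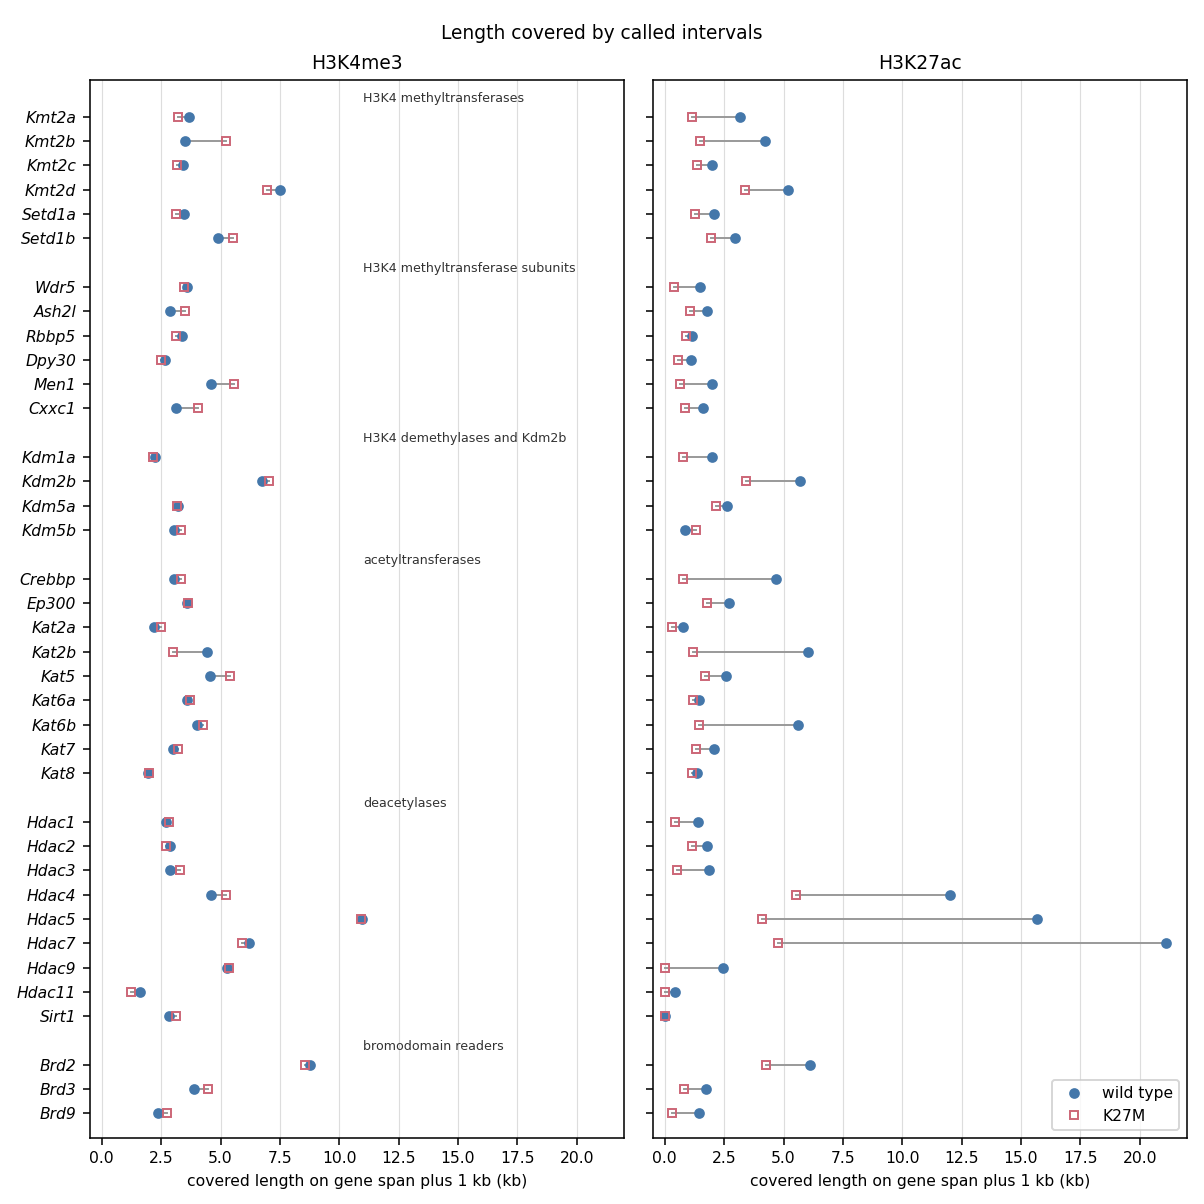
Length covered by H3K27ac intervals over each gene's span plus 1 kb, in wild type and K27M. The class IIa deacetylases Hdac7, Hdac5 and Hdac4 hold the longest coverage in wild type, at 21102, 15695 and 12024 bp.

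The count of 2-fold shorter genes was 7 of 8 among the deacetylases, 4 of 9 among the acetyltransferases and 2 of 6 among the methyltransferases. It was 3 of 6 among the methyltransferase subunits, 1 of 4 among the demethylases and 2 of 3 among the readers, against 50.6% of all genes. Hdac7 had 27 intervals over 21102 bp in wild type, above 99.5% of the genes marked in that library, and 9 intervals over 4749 bp in K27M. Hdac5 had 20 intervals over 15695 bp and 8 over 4079 bp, and Hdac4 had 17 over 12024 bp and 5 over 5523 bp. These 3 genes held the longest coverage of the regulators in wild type, and they kept 22.5%, 26.0% and 45.9% of it. Hdac2, with 1757 and 1158 bp, was the deacetylase that kept the largest share, at 65.9%. At promoter and CpG island intervals alone, Hdac4 kept 81.7%, Hdac7 66.1% and Hdac5 35.7%.

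Kat2b had 8 intervals over 6028 bp in wild type and 3 over 1201 bp in K27M. Crebbp had 6 over 4671 bp and 2 over 780 bp, a kept share of 16.7%, the lowest of the genes marked in both libraries. Kat6b, with 5597 and 1455 bp, kept 26.0%. By contrast Ep300 had 2703 and 1788 bp and kept 66.1%, and Kat8, which acetylates H4K16, kept 86.4%. At promoter and CpG island intervals alone the order was the other way, with 82.5% kept at Crebbp and 66.1% at Ep300. The 4 Crebbp intervals found elsewhere in wild type reached at most 25.1 tags per bin, below the 5th percentile of the K27M list, so whether they were lower in K27M was not detectable.

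**Figure D4:**
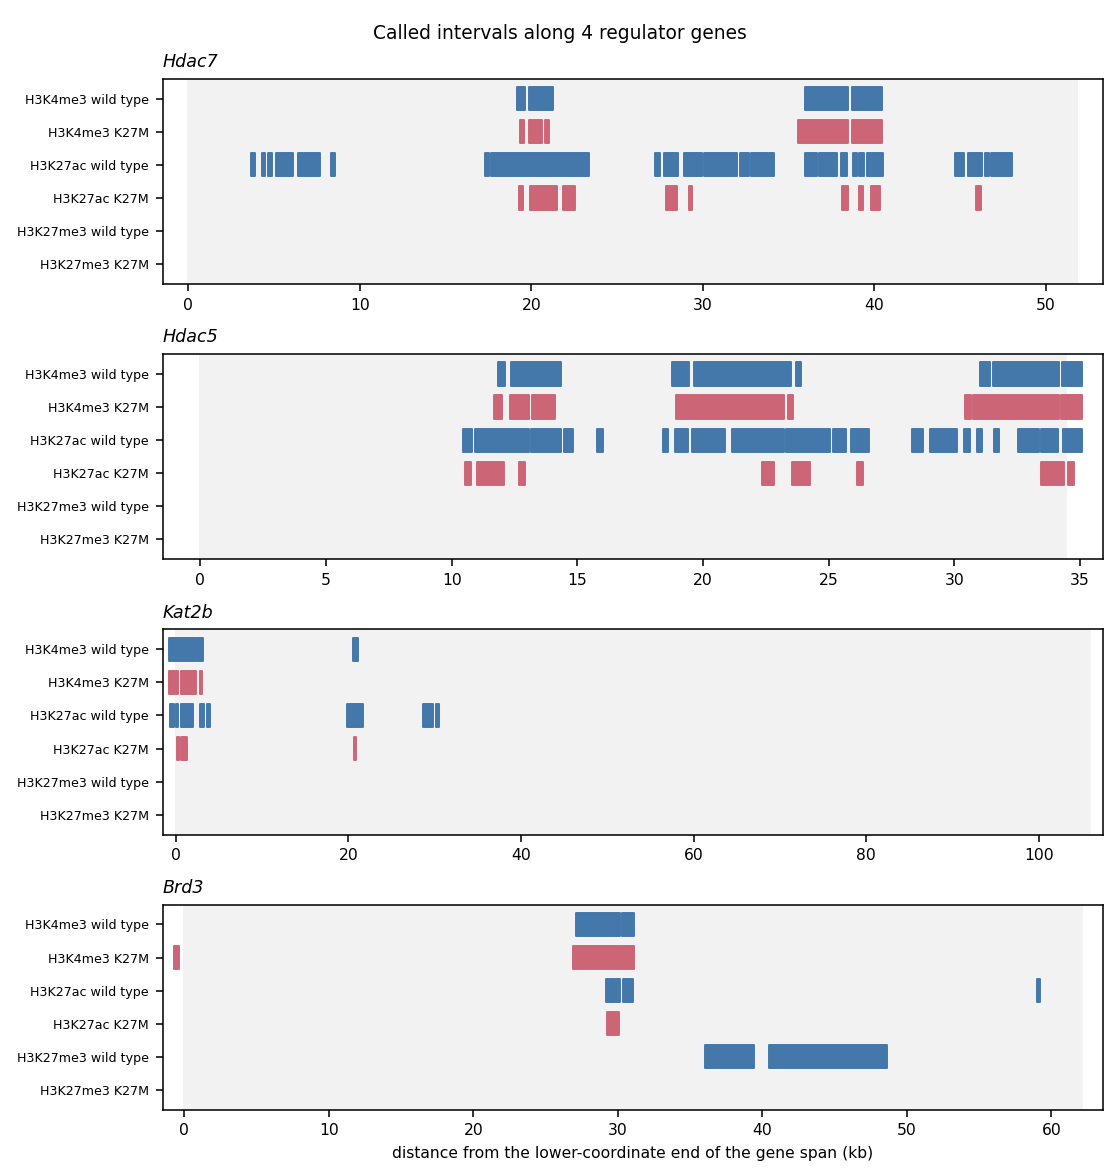
Called intervals of each mark in wild type and K27M across Hdac7, Hdac5, Kat2b and Brd3, with the gene span in grey and position in kb. The main H3K4me3 intervals are found in both libraries, with 4 short ones in 1 library alone, several H3K27ac intervals appear in wild type alone, and H3K27me3 is seen at Brd3 in wild type.

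Position divided the H3K27ac intervals of these genes. At sites that the authors' table put at a promoter or CpG island, 58 of 82 wild-type intervals (70.7%) met a K27M interval, against 62.8% for all genes. At other sites 14 of 78 did (17.9%), against 18.1%. All 79 K27M intervals at the regulators met a wild-type interval, against 96.5% at promoters or islands and 92.4% elsewhere for all genes. Of 13 genes with wild-type intervals away from promoters and islands, 9 had none there in K27M (69.2%), against 58.8% of all genes. At 6 of the 9, namely Brd2, Brd3, Crebbp, Kdm5a, Kmt2b and Setd1b, every such wild-type interval was below 25.5 tags per bin. Kat6b, Kdm1a and Kmt2a had at least 1 above it, the densest at 38.3, 30.5 and 28.2. The 4 that kept some were Hdac4 with 15 and 3, Hdac5 with 16 and 6, Hdac7 with 24 and 7, and Kat2b with 5 and 1. Counting promoter and island intervals alone, 12 of 36 genes were 2-fold shorter (33.3%), against 39.4% of all genes.

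The density of the wild-type interval moved with this share. Of wild-type intervals away from promoters, 10 of the 34 with at least 25.5 tags per bin met a K27M interval (29.4%), and 4 of the 44 below it did (9.09%). At promoters and islands these counts were 54 of 65 (83.1%) and 4 of 17 (23.5%). Hdac4, Hdac5 and Hdac7 held 15, 16 and 24 of the wild-type intervals away from promoters. The same split was not made over all genes, so these shares are not a result about the regulators. Densities were not matched between the kinds of site. The median over all wild-type intervals was 34.4 tags per bin at promoters and islands and 24.6 elsewhere. The part of density in the gap between the kinds of site was not tested.

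At the 29 promoter windows, 1 for each gene and chosen partly by H3K4me3, H3K4me3 was on 28 in both libraries, against 50.3% of all genes in wild type and 50.8% in K27M. The exception was Crebbp, whose H3K4me3 intervals ended on one side of the listed window and began again on the other. H3K27ac was on 25 windows in wild type (39.3%) and 20 in K27M (27.4%). It was in wild type alone at Dpy30, Hdac11, Hdac9, Kdm1a, Men1 and Wdr5, 24% of the 25 windows where all genes had 32.5%. The chosen Kdm2b window had it in K27M alone, and those of Crebbp, Kmt2a and Sirt1 in neither. Counting any entry of a gene, H3K27ac was on 26 genes in wild type and 22 in K27M. It was then in wild type alone at 4 genes (Hdac11, Hdac9, Kdm1a and Wdr5), since other entries of Dpy30, Men1 and Kdm2b had it in both libraries. The Sirt1 window, with 47 CpG against the median of 30, thus carried H3K4me3 without called H3K27ac.

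H3K27me3 was sparse at the regulators. In wild type 5 of 37 genes (13.5%) met an interval, against 31.4% of all genes and 26.4% of those with H3K4me3 in both libraries, and in K27M 0 of 37 did, against 10.1% and 9.66%. None of the 29 promoter windows held the mark in either library, against 18% of all windows in wild type and 4.39% in K27M. The authors' notes, however, put a wild-type interval at a promoter or CpG island for 4 genes, against 6691 of all 24350. These were Brd3, Crebbp, Hdac2 and Kat5. Brd3 was the only regulator with intervals on its gene span, at chr2:27481600-27484999 with 3.96 tags per bin and chr2:27486000-27494199 with 4.46. They begin 6.20 and 10.6 kb upstream of the start site printed above, and neither had a K27M counterpart. Both densities lie below the median of 4.97 over the wild-type list.

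At the other 4 genes only the 1 kb flank was touched. The intervals had densities of 6.77 at Crebbp, 6.70 at Kat5, 4.28 at Hdac2 and 5.15 at Hdac11. The one beside Crebbp, chr16:4214400-4234599, met a K27M interval of 2.95 tags per bin that lay outside the Crebbp window. The median distance from a regulator to the nearest H3K27me3 interval was 6.74 kb in wild type and 67.7 kb in K27M, and an interval lay within 5 kb of 12 genes and 1 gene. Over all genes the median distance was 14.0 kb in wild type and 150 kb in K27M, and 40.2% and 13.7% of genes had an interval within 5 kb.

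Of 104 other genes of the same pathways, 100 carried H3K4me3 in both libraries (54.7% of all genes). H3K27ac was on 99 in wild type (51.5%) and 93 in K27M (43.7%). Relative to the median, H3K27ac density was at least 1.5-fold higher at 5 of 92 (3.29% of all genes) and lower at 6 (2.58%). Covered H3K27ac length was 2-fold shorter at 41 of 99 (50.6% of all genes). The H3K27ac extremes were the remodeller subunit Cecr2, with 60.4 and 33.9 tags per bin (-0.82), the BAF subunit Dpf3 with 64.5 and 40.1 (-0.67), the acetyl-lysine reader Mllt3 with 23.7 and 39.3 (0.71) and the NuRD subunit Mta3 with 22.9 and 50.8 (1.12). For H3K4me3 they were the readers Bptf with 88.2 and 87.4 (-0.01) and Zmynd8 with 44.3 and 44.1, the coactivator Ncoa1 with 85.2 and 148 (0.79) and the deacetylase Hdac10 with 90.6 and 161 (0.82). H3K27me3 was on 9 of the 104 in wild type (31.4% of all genes) and 0 in K27M (10.1%). The 9 were Smyd3, Hcfc2, Kansl1, Jade1, Trrap, Supt20, Hdac10, Sirt6 and Brdt. Hdac10 had 12.6 tags per bin and Sirt6 9.78.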

How the data were processed

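Groups came from the sample titles: 8 samples, with 1 library per genotype for each of 3 marks and 2 inputs, which were not used here. Per the file headers, the authors' deposited interval tables give a mean and a highest signal, a tag density per bin of about 32 nt, for each interval, with its length, number of bins and promoter and CpG island notes. The tools named in the submitters' processing notes are BWA and SICER, and the build is mm10. Which caller made each list, its thresholds, any scaling and the use of inputs were not stated. The depth is also unknown, and a difference in scale cannot be told apart from a genome-wide change. Densities average over the called interval and move with its length.

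Genes came from RefSeq GRCm38.p6, the assembly of mm10. An interval belonged to a gene when it overlapped the span plus 1000 bp by at least 1 bp. Overlapping intervals of both libraries were merged into regions. A call was a density ratio, log2((K27M + 1)/(wild type + 1)), at least 1.5-fold from the median over all genes, or a 2-fold change in covered length. Ratios understate changes at low density. Percentages of all genes count genes measured in the same way. All 37 genes are reported, and of 104 other pathway genes those with H3K27me3 and the 2 highest and 2 lowest ratios per mark. The members, gene lists and markers were chosen with earlier results of these data known. The steps were tested on simulated intervals. Python 3.11.15, pandas 2.3.3, NumPy 2.4.6 and matplotlib 3.10.9 were used.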

Additional observations from a re-analysis of the deposited data

How the results depend on the processing

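No paired analysis was possible because each genotype had 1 library per mark, and for the same reason no library could be left out. No called ratio changed sign under any alternative run. Without the flank, 1 gene had H3K27me3 in wild type and 1 was counted as shorter; with a flank of 5 kb, 12 genes had it in wild type and 1 in K27M. With 1 density floor for both lists, H3K4me3 was lower at 1 gene, and with a pseudocount of 5, H3K27ac was lower at 1. On the deposited scale H3K4me3 was higher at 4 genes, with a median ratio of 0.37. With equal 5th percentiles the median was 0.21 with 1 gene higher for H3K4me3, and -0.55 with 0 higher and 15 lower for H3K27ac. At a 2-fold limit H3K27ac was higher at 0 and lower at 0. At a 1.5-fold length limit, H3K27ac was shorter at 29 genes and longer at 1. Among alternatives added after seeing the data, H3K27ac was shorter at 12 genes by promoter and CpG island intervals, while intervals elsewhere gave 4 shorter for H3K4me3 and 2 for H3K27me3, any promoter entry gave 0 genes with H3K27ac in K27M alone, and the longest region left the counts of density calls within 1.5 times. The causes were not tested, beyond what each setting does to the intervals counted. Depth is unknown, and a called list stops at its own lowest density, so a mark below that density cannot be told from absence. Reads were not used, so signal outside called intervals was not measured.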
